A study of Mus musculus with 33 samples.

Results

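At 100 µg/ml, mouse macrophage-like cells given lipopolysaccharide (LPS) together with paeonol were compared with cells given LPS together with either of the peony glycosides albiflorin and paeoniflorin. The members were chosen by their labels: 3 arrays of LPS with paeonol, 3 of LPS with albiflorin and 3 of LPS with paeoniflorin, so 9 of the 33 arrays of the series. The rule itself uses labels and no measured value. The 3 paeonol arrays were set against the 6 glycoside arrays pooled, within replicate number, over all gene probes.

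The cells were RAW264.7, an established line derived from mouse macrophages. Every one of the 9 cultures received LPS at 1 µg/ml and 1 compound at 100 µg/ml for 6 h, so LPS is common to both sides of the comparison. The other 24 arrays held the same compounds with LPS at 1 and 10 µg/ml, LPS alone, and vehicle (DMSO, no LPS), with 3 arrays in each of the 11 groups. Per the text on the series' design the replicates are biological.

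LPS is a component of the outer membrane of Gram-negative bacteria. Macrophages sense it through the receptor Toll-like receptor 4, which activates the transcription factors NF-kB and AP-1 and, through a separate adaptor and secreted interferon, a set of interferon-inducible genes. Paeonol is a small phenolic ketone found in peony root bark. Albiflorin and paeoniflorin are monoterpene glycosides of peony root that carry a glucose and a benzoyl ester, and they are isomers of each other. Paeonol has neither the terpene cage nor the sugar. It is also the smaller molecule, so that equal mass doses are not equal molar doses.

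Gene names were scarce. Of 33012 gene probes, 316 could be paired with a gene symbol through their deposited accession, and most of the rest carry Celera gene identifiers that the name table used here does not hold. Probes count as detected where the signal-to-noise value reaches 3, and those detected on 3 or more of the 9 arrays were tested. This left 16409 probes, 152 of them named. The 9 arrays had 45.2% to 48.8% of probes detected and median raw signals of 335.9 to 1157. Albiflorin replicate 2 stood apart, with the lowest median signal, the most quality-flagged probes (572) and a median correlation with the others, 0.962, that was lower than any other array's. The values also sorted the arrays into sets that neither labels nor file headers name. Over the 33 arrays 37 probes took separate levels. The split of 31 of them set 15 arrays apart, and that of 4 others set 10 apart. The 8 arrays left over were taken as the third set, which no probe defined. Paeonol replicates 1 and 3 and paeoniflorin replicate 3 lay in the set of 8, albiflorin replicate 3 in the set of 10, and the other 5 arrays in the set of 15. Results are therefore also given with this array set as a term, and without single arrays where that changes them. None of the fixed markers of other cell types could be named here, and among the macrophage markers Cebpb alone was named, so the labelled cell type could not be checked further.

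Paeonol differed from the pooled glycosides at 59 of the 16409 probes (0.360%), called at an adjusted p under 0.05 in a linear model of the 27 compound arrays with replicate number as a term. Of these, 17 were higher with paeonol (0.104%) and 42 were lower (0.256%). The difference reached 2-fold at 20 probes, 3 higher and 17 lower. The median log2 difference was 0.73 among the 17 higher probes and -0.91 among the 42 lower ones, against 0.028 over all tested probes. At 16 of the 17 higher probes the paeonol arrays lay wholly above the 6 glycoside arrays, as at 3.92% of all tested probes, and at 40 of the 42 lower probes wholly below, as at 2.23%. That makes 56 of 59 against 6.16% of all tested probes. The probes were called on these same arrays, so this separation largely follows from the calling and is no separate support. At an unadjusted p under 0.05 there were 1748 probes, where 820 would be expected with no difference.

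With the array set as a second term, 138 probes were called (0.841%), 44 higher and 94 lower, and 50 of the 59 were among them. All 59 kept their direction. Without albiflorin replicate 2 the count fell to 28, of which 27 were among the 59. It fell without any other single glycoside array too, to between 22 (without paeoniflorin replicate 1) and 39 (without paeoniflorin replicate 2). The count also depended on the paeonol arrays, with 13 calls without replicate 1, 9 without replicate 2 and 88 without replicate 3. With no replicate term it was 9. When only the 9 arrays entered the limma model, which leaves 4 residual degrees of freedom, 0 probes passed the adjusted threshold and 2083 had an unadjusted p under 0.05.

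**Figure D1:**
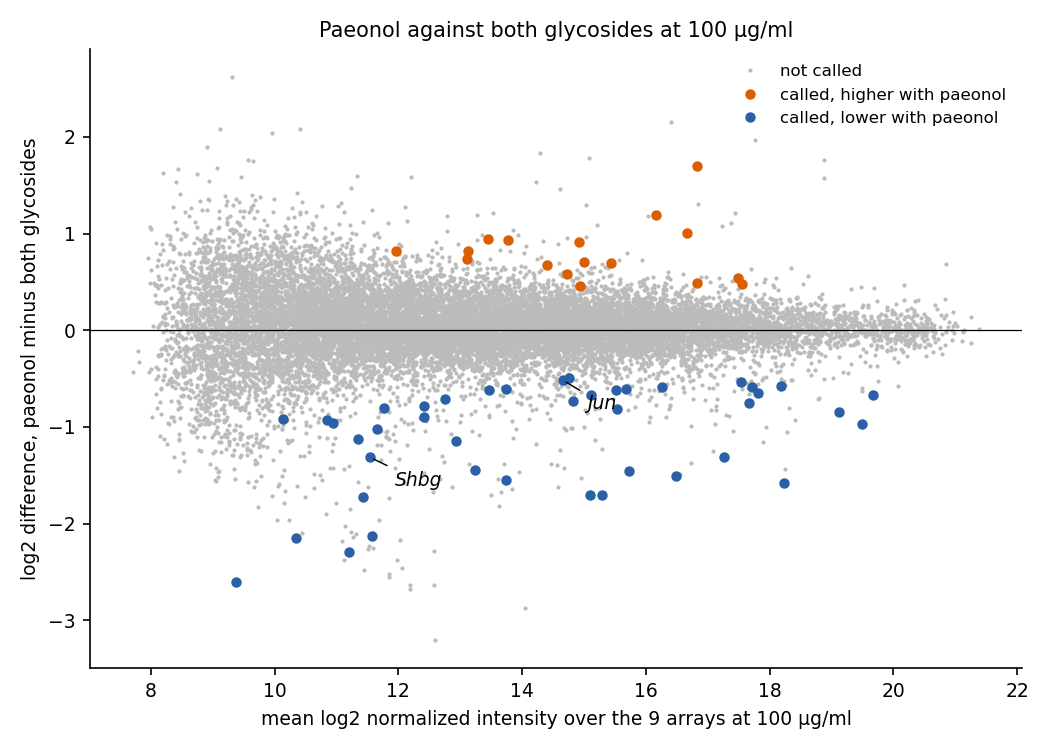
Each point is 1 of 16409 tested probes, with the mean log2 normalized intensity over the 9 arrays at 100 µg/ml on the x axis and the log2 difference of paeonol minus both glycosides on the y axis. Orange points are the 17 probes called higher and blue points the 42 called lower, among them Shbg and Jun, and grey points were not called, including some with larger differences.

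**Figure D2:**
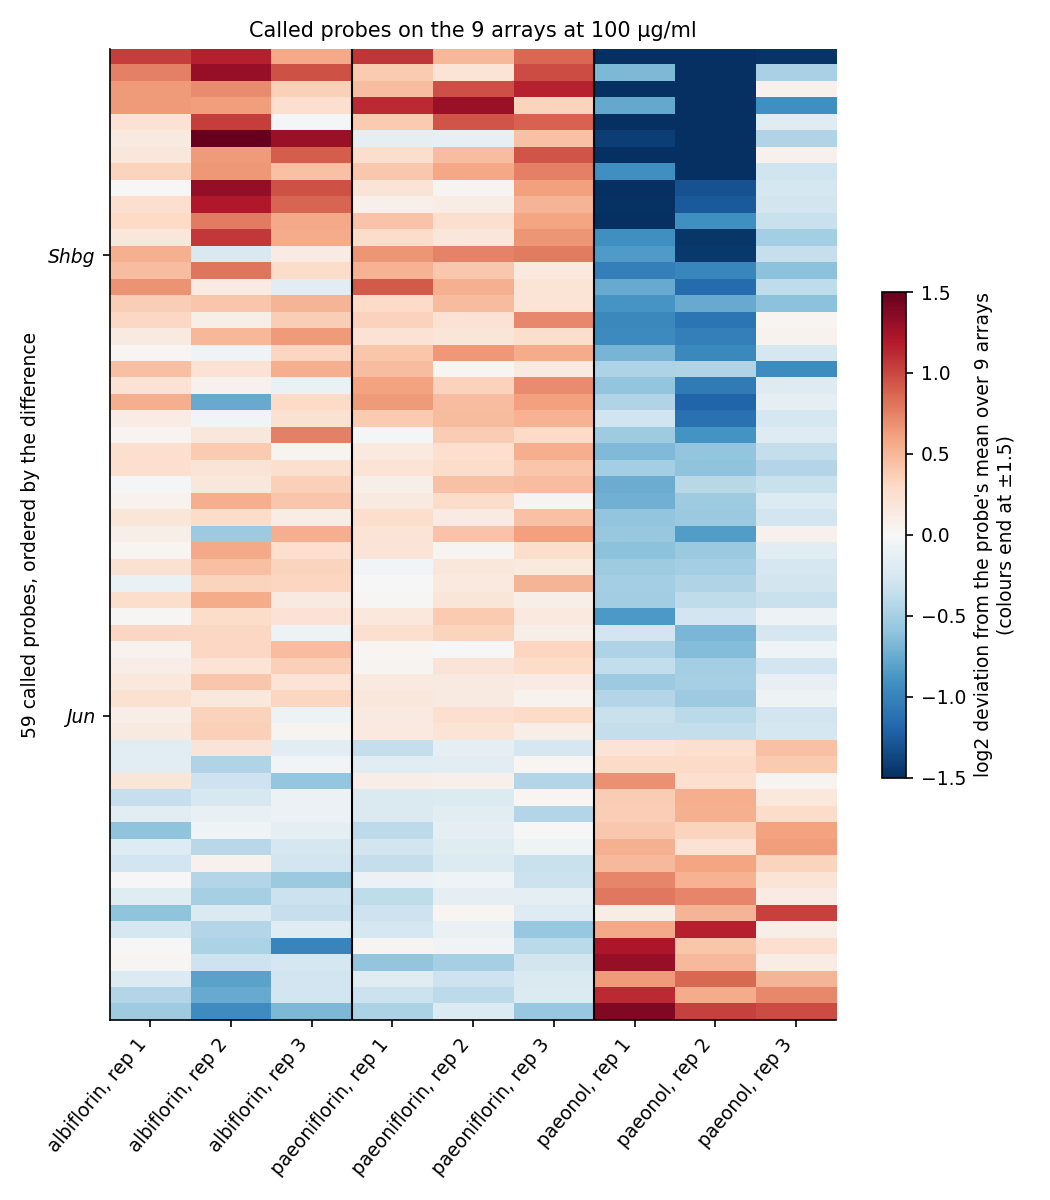
Rows are the 59 called probes ordered by their difference, columns the 9 arrays at 100 µg/ml, and colour the log2 deviation from the probe's own mean over these arrays, ending at 1.5 either way. The 3 paeonol columns stand against the 6 glycoside columns, more weakly in replicate 3 than in replicates 1 and 2 for many of the lower probes.

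Of the 59 called probes 2 had a gene name, Shbg and Jun, and both were lower with paeonol. Shbg encodes sex hormone-binding globulin, a protein that binds androgens and estrogens. The gene lies on chromosome 11 at 69610282 to 69618026 on the minus strand (GRCm38.p6), and the files do not say which exon its probe covers. Jun encodes c-Jun, a subunit of the transcription factor AP-1 and an immediate early gene. It lies on chromosome 4 at 95049036 to 95052222 on the minus strand. The bases just upstream of both genes are shown because these are the only named genes that were called and Jun can act on promoters, its own included. They come from RefSeq's promoter table (GRCm38.p6) and read 5′ to 3′ along the gene's strand, with motif matches in capitals. For Shbg the 129 bases chr11:69618027-69618155 lie outside the annotated gene, and for Jun the 250 bases are chr4:95052223-95052472.
Shbg upstream: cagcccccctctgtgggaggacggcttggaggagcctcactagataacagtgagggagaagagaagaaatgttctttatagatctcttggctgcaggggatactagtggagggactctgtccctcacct
Jun upstream: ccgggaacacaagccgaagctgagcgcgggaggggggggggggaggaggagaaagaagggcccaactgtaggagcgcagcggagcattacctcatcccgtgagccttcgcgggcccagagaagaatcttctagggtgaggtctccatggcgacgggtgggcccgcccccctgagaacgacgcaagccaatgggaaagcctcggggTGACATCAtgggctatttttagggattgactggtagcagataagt
The AP-1 site TGACTCA, the cyclic AMP response element TGACGTCA and the variant TGACATCA were searched on both strands in the 250 bases upstream of each table start. They were found in 4.46%, 1.55% and 2.93% of 32851 such windows. The Jun window held TGACATCA once, 45 bases upstream of the start, and the Shbg window held none of these letters. A match is a description of the letters and no evidence of binding.

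Shbg was lower on every paeonol array than on any glycoside array. Its log2 normalized intensity was 10.70, 10.10 and 11.20 with paeonol in replicates 1, 2 and 3. With albiflorin it was 12.08, 11.31 and 11.66, and with paeoniflorin 12.20, 12.29 and 12.33. The paeoniflorin arrays were high and close together, and albiflorin replicate 2 came nearest to the paeonol arrays. Shbg was thus 2.49-fold lower with paeonol than with the pooled glycosides (log2 difference -1.31 ± 0.182 SE, 95% interval -1.70 to -0.93, 3 against 6 arrays, limma adjusted p = 0.00272). The difference was -1.45, -1.70 and -0.80 within replicates 1, 2 and 3. The exact permutation test within replicate number, two-sided, gave p = 0.037, the smallest that its 27 arrangements can give. Shbg was named as a marker with earlier results of these data known, and the test uses the same arrays. Its p therefore adds no separate support. With the array set as a term the difference was -1.34 (limma adjusted p = 0.00939), and without albiflorin replicate 2 it was -1.33 (adjusted p = 0.00908). Within the set of 15 arrays, with 1 paeonol array against 4 glycoside arrays, the difference was -1.87. Within the set of 8, with 2 paeonol arrays against paeoniflorin replicate 3 alone, it was -1.38. Both values rest on a single array on 1 side and cross replicate numbers. The call was lost without paeonol replicate 2 (limma adjusted p = 0.0513), and the 3 other alternatives that ended it are given with the processing.

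On the arrays outside the comparison, Shbg was not detected on any vehicle array, with log2 levels of 8.43, 8.20 and 8.48. It was 12.36, 11.55 and 12.74 with LPS alone, at least 14.4-fold higher (limma adjusted p = 0.00516). The paeonol arrays therefore lay between the vehicle and the LPS arrays, and the glycoside arrays within or near the range of LPS alone.

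Jun was also lower on every paeonol array than on any glycoside array, by a smaller amount. Its log2 level was 14.32, 14.24 and 14.37 with paeonol. With albiflorin it was 14.75, 14.99 and 14.58, and with paeoniflorin 14.79, 14.90 and 14.94. The 3 paeonol values were close together, and the gap to the lowest glycoside array, albiflorin replicate 3, was small. Jun was 1.43-fold lower with paeonol (log2 difference -0.51 ± 0.105 SE, 95% interval -0.74 to -0.29, 3 against 6 arrays, limma adjusted p = 0.0378). Within replicates 1, 2 and 3 the difference was -0.45, -0.70 and -0.39. The two-sided exact permutation test gave p = 0.037, again the smallest possible and with the same limit as for Shbg, and p = 0.111 after median normalization.

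The call of Jun was less firm than that of Shbg. It was kept with the array set as a term (-0.60, limma adjusted p = 0.0216). The difference was -0.61 within the set of 15 arrays (1 paeonol against 4 glycoside arrays). It was -0.59 within the set of 8 (2 paeonol arrays against 1 paeoniflorin array), so both values rest on a single array on 1 side. Without albiflorin replicate 2 the adjusted p was 0.108. Over 23 alternatives the adjusted p ran from 0.0216 to 0.450, and 15 of them ended the call, although none turned its direction. On the arrays outside the comparison Jun was 14.48, 14.33 and 14.56 with vehicle and 14.68, 15.06 and 14.29 with LPS alone. These groups overlapped, and the log2 difference of 0.22 between them was not called (limma adjusted p = 0.510).

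**Figure D3:**
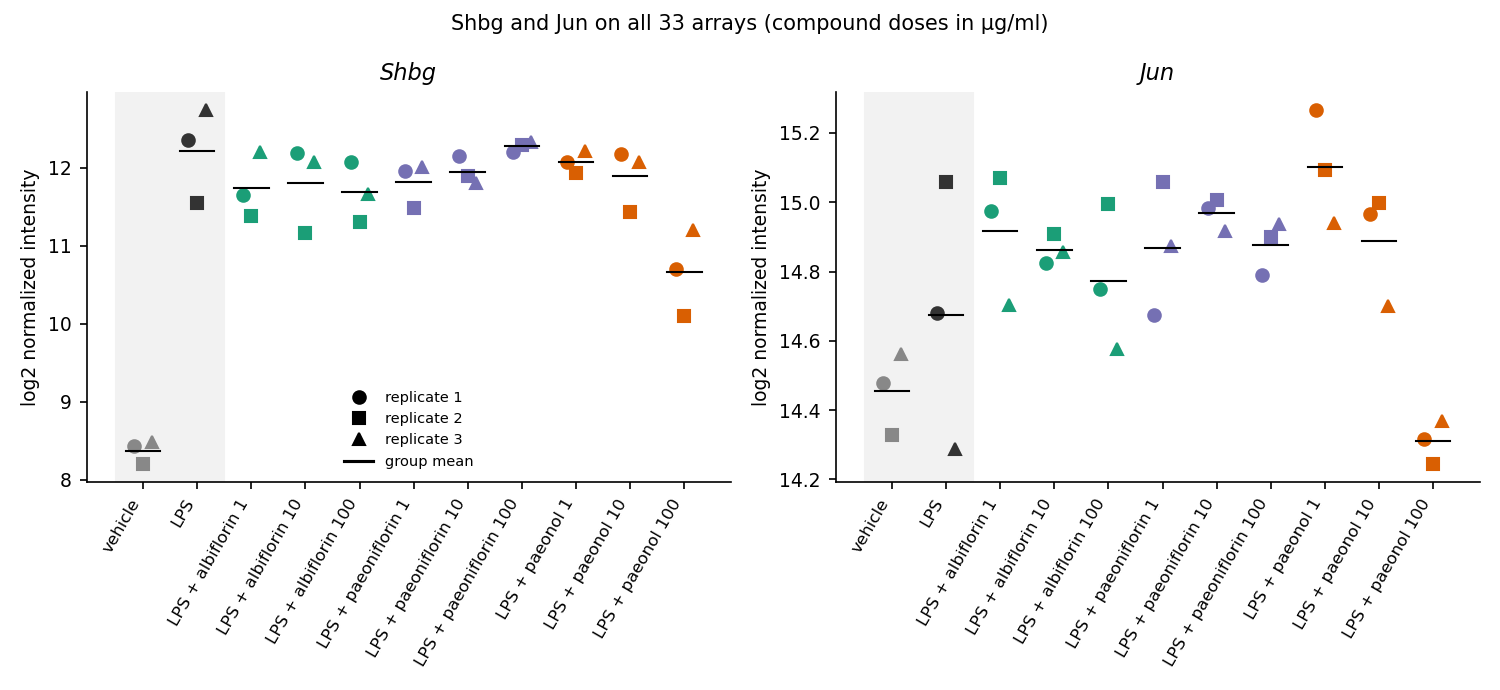
Points are the log2 normalized intensities of Shbg (left) and Jun (right) on all 33 arrays, by group along the x axis with compound doses in µg/ml, marker shape giving the replicate number and lines the group means of 3 arrays. The paeonol arrays at 100 µg/ml lie below all 6 glycoside arrays of that dose in both panels, and the shaded vehicle and LPS arrays are outside the comparison.

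The other named and tested genes were not called. Values are given for those with the smallest p, 12 higher and 10 lower. The interferon response list had 3 tested genes, Csprs, Ifi202b and Trim34a, of which 0 were called and all 3 had negative differences. LPS raised all 3 at least 8-fold over vehicle, and 94.2% of the 191 probes raised that much were lower with paeonol. Their shared sign is therefore near that share and is not particular to this list. Csprs, a gene of the Sp100-related cluster on chromosome 1, had log2 levels of 15.68, 15.86 and 16.27 with paeonol, all below the glycoside range of 16.44 to 16.97. Its log2 difference was -0.70 ± 0.177 SE (limma adjusted p = 0.115), and the adjusted p was 0.0323 with the array set as a term and 0.0382 without paeonol replicate 3. Ifi202b, an interferon-activated gene of the p200 family, was at -0.37 (adjusted p = 0.465), and Trim34a, a tripartite motif gene, at -0.46 (adjusted p = 0.50). Both overlapped the glycoside arrays. On the separate LPS and vehicle arrays Csprs was 19.9-fold and Ifi202b 25.2-fold higher with LPS (limma adjusted p = 0.00542 and 0.00384). C130026I21Rik, which lies on chromosome 1 like Csprs and is in no list, was at -0.52 (adjusted p = 0.245) with no overlap between the groups. The paeonol arrays lay below all 6 glycoside arrays, as for Csprs and C130026I21Rik, at 2.23% of all tested probes.

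The remaining uncalled genes on the lower side had small or scattered differences. The histone gene H2bc13 was at -0.44 ± 0.111 (adjusted p = 0.115) and Lst1, a leukocyte-specific transcript of the MHC region, at -0.42 ± 0.136 (adjusted p = 0.237). Tcp10b was at -1.07 ± 0.386 (adjusted p = 0.300), with paeonol replicate 2 at 13.41 inside the glycoside range and replicates 1 and 3 at 11.55 and 11.44 below it. Aldh3a2, Med9 and Mt3 lay between -0.28 and -0.23. Aldh3a2 is a fatty aldehyde dehydrogenase, Med9 a Mediator subunit and Mt3 a metallothionein.

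On the higher side no named gene was called. Nanos1, an RNA-binding translational repressor known from germ cells, was at 10.75, 10.72 and 10.92 with paeonol and at 10.05, 10.40 and 10.41 with paeoniflorin. It was not detected on any albiflorin array, so that the level with paeonol was at least 3.83-fold higher there, and its difference from the pooled glycosides was 1.22 ± 0.381 (limma adjusted p = 0.214). The histone gene H2bc18 was detected on 3 of 3 paeonol arrays and on 0 of 6 glycoside arrays, at least 1.59-fold higher (adjusted p = 0.259). With 0 glycoside detections, this gene could enter the test only by being detected on all 3 paeonol arrays. The split of detection by compound therefore follows from the filter and is no separate result. The 6 undetected levels reached 12.18 against 12.22 on the lowest paeonol array.

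Foxn3, a forkhead transcription factor, was at 0.64 ± 0.182 (adjusted p = 0.169) and Nupr1l, related to the stress protein Nupr1, at 0.74 ± 0.220 (adjusted p = 0.194). Trim59, a ubiquitin ligase of the tripartite motif family, was at 0.40 ± 0.129 (adjusted p = 0.236) with no overlap, and Dhrs7b, a peroxisomal and endoplasmic reticulum reductase, at 0.47 ± 0.200 (adjusted p = 0.401), also with no overlap. Ikbip, Mapk1ip1, Mblac1, Sf3b5, B9d1 and Trmt61a lay between 0.28 and 0.62 with adjusted p of 0.361 to 0.494. Mapk1ip1 and Sf3b5 had no overlap either. The paeonol arrays lay above all 6 glycoside arrays at 3.92% of all tested probes.

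Of 246 genes in 15 lists of pathways and cell types, 20 were named and tested, and no list had more than 5 tested genes. The AP-1 and immediate early list had 1 tested gene of 17, Jun, which was lower. The list of xenobiotic and aryl hydrocarbon receptor genes had 3 of 13, of which Shbg was lower and Dhrs7b and Hsd17b10 were not called. The lists were chosen with earlier results of these data known, so the place of Shbg there is no result about that pathway. In the pattern recognition and inflammasome list 0 of 3 tested genes were called. Wdfy1, an adaptor of Toll-like receptor signalling, was at -0.53 ± 0.437, Nlrp3, the inflammasome sensor, at -0.34 ± 0.361, and Tlr7, an RNA sensor, at -0.21 ± 0.302. Wdfy1 was lower on every paeonol array, 12.42 to 12.73 against 12.96 to 13.32, as were 2.23% of all tested probes. Its limma adjusted p was 0.744. Nlrp3 and Tlr7 overlapped.

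The NF-kB list had 1 tested gene, Bcl2a1b, an anti-apoptotic Bcl2 relative, whose difference was 0.00017 ± 0.116 (95% interval -0.24 to 0.24) and whose sign turned between alternatives. Bcl2a1b belongs to a family of near-identical copies that its probe may not separate. Among mTORC1 and cytokine signalling genes 0 of 5 were called. Smcr8 was at -0.15 (95% interval -0.44 to 0.15), and Tnfsf13, Stat5a and Rraga lay between -0.078 and 0.11, with signs that turned under some alternatives. Cebpb, a transcription factor of macrophages, had a difference of 0.19 (95% interval -0.14 to 0.51) on 1 probe and of 0.23 (95% interval -1.06 to 1.53) on the other. No tested gene of the cytokine, chemokine, sterol and lipid, or glycolysis lists could be named, so the usual LPS mediators are not analysed here.

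The called probes with the largest differences in each direction had no name here. Probe 604718 was higher with paeonol by 1.70 ± 0.154 on the log2 scale (limma adjusted p = 3.0e-05), 3.25-fold. Its log2 levels were 18.22, 17.85 and 17.81 with paeonol, 15.89 to 16.29 with albiflorin and 16.26 to 16.62 with paeoniflorin. The paeonol arrays were thus well above the other compounds, and above the vehicle arrays too, which ran from 17.17 to 17.72. Probe 610705 was higher by 1.20 ± 0.124 (adjusted p = 0.000126), with 17.29, 16.73 and 16.89 against 15.41 to 15.97 over the 6 glycoside arrays. LPS alone did not move it detectably, at 0.032 from vehicle (adjusted p = 0.864).

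On the lower side, probe 541442 was detected on 6 of 6 glycoside arrays and on 0 of 3 paeonol arrays, where its level was at least 6.09-fold lower (limma adjusted p = 0.00931). Unnamed probes were chosen among called probes detected on all arrays of the higher group, so the 6 of 6 follows from that choice. Probe 541442 also passed the detection filter through the glycoside arrays alone, so this split of detection is no separate support. Its log2 levels were 9.88 to 10.55 with the glycosides and 7.57, 7.45 and 7.91 with paeonol. Probe 860577 was lower by 2.29 ± 0.463 (adjusted p = 0.0378), with 10.52, 7.78 and 10.71 with paeonol and 11.40 to 12.50 with the glycosides. Paeonol replicate 2 was far below the other 2 paeonol arrays for this probe, and it was the 1 paeonol array on which the probe was not detected. The difference was -1.25 and -1.46 within replicates 1 and 3, and within replicate 2 the undetected level gives only a bound.

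Setting paeonol against each glycoside in turn gave fewer calls than the pooled comparison, and the glycosides were not told apart. The 3 pairs of compounds were compared at the same mass dose and time. Against albiflorin 25 probes were called (0.152%), 8 higher (0.0488%) and 17 lower (0.104%). Against paeoniflorin 21 were called (0.128%), 6 higher (0.0366%) and 15 lower (0.0914%). Between albiflorin and paeoniflorin 0 of 16409 probes were called by limma, with 1108 at an unadjusted p under 0.05. Adjusted over the 3 pairs together the counts were 13, 13 and 0. The glycoside difference had a 95% interval within 1 log2 unit of 0 at 64.4% of probes, so that larger differences remain possible at the others.

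Of the 59 called probes, 11 were called against both glycosides and 27 against neither alone. The pair comparisons share the paeonol arrays and are therefore given side by side. The 17 higher probes had a median of 0.81 against albiflorin and 0.71 against paeoniflorin, and the 42 lower probes had -0.80 and -0.94. Shbg was 2.03-fold lower against albiflorin (-1.02, limma adjusted p = 0.0591) and 3.05-fold lower against paeoniflorin (-1.61, adjusted p = 0.00243). Between the glycosides Shbg was at -0.59 for albiflorin minus paeoniflorin (95% interval -1.03 to -0.15, adjusted p = 0.728 over all probes). Jun was at -0.46 against albiflorin (adjusted p = 0.127), at -0.57 against paeoniflorin (adjusted p = 0.103) and at -0.10 between the glycosides (95% interval -0.36 to 0.15).

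Probes 604718 and 610705 were called against each glycoside. Probe 604718 was 3.60-fold higher against albiflorin and 2.93-fold higher against paeoniflorin, and probe 610705 was 2.45-fold and 2.15-fold higher. Both calls also held when adjusted over the 3 pairs, with adjusted p of 0.000229 and 0.00113 for probe 604718 and of 0.00106 and 0.00365 for probe 610705. Paeonol thus differed from each glycoside at these probes, while albiflorin and paeoniflorin were not distinguished there, with intervals of -0.67 to 0.074 and -0.49 to 0.11. Whether this goes with the structure of the compounds was not tested.

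Many of the probes that were lower with paeonol were probes that LPS raises. The LPS response was read from the LPS and vehicle arrays, which are not part of the comparison but were normalized together with it. LPS called 4282 of the 16409 probes (26.1%), 1776 higher (10.8%) and 2506 lower (15.3%). Of the 42 probes lower with paeonol, LPS raised 33 and lowered 1, and 8 were not called. Of the 17 probes higher with paeonol, LPS lowered 9 and raised 3, and 5 were not called. Without albiflorin replicate 2 LPS raised 17 of the 20 lower probes, and with the array set as a term 64 of 94. Without paeonol replicate 1 it raised 7 of the 9 lower probes that were left, and without paeonol replicate 2 it raised 3 of 5.

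The same direction was seen beyond the called probes. Over the 1776 LPS-raised probes the median difference of paeonol minus the glycosides was -0.18, with 75.7% of them lower, and over the 2506 LPS-lowered probes it was 0.21, with 81.9% higher. Of all tested probes 45.4% were lower and 54.6% higher. Over the probes that LPS did not call the median was 0.018. Among the 191 probes that LPS raised at least 8-fold the median was -0.60, 94.2% were lower and 16 were called lower, where 0.256% of all tested probes were. Across the 16409 probes, which are not independent and share the normalization, the difference correlated with the LPS response at a Pearson r of -0.388 and a Spearman rho of -0.378. For albiflorin minus paeoniflorin the Pearson r was 0.217, so a correlation with the LPS response was not particular to paeonol.

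Single arrays carried much of this shift. In the list of 191, each array's median deviation from the probe means was -0.61, -0.57 and -0.033 for paeonol replicates 1, 2 and 3. It was -0.098, 0.70 and 0.34 for albiflorin and -0.013, -0.012 and 0.34 for paeoniflorin. Paeonol replicates 1 and 2 were below all glycoside arrays, and paeonol replicate 3 was not. Albiflorin replicate 2, which stood apart, was the highest, and without it the medians were -0.55 in the list of 191 and -0.17 in the list of 1776. They were much the same without paeoniflorin replicate 1, at -0.53 and -0.17. Without paeonol replicate 2 the medians were -0.40 and -0.10, with r at -0.247, and without any other single array the median of the 1776 stayed between -0.24 and -0.17. Between the glycosides, albiflorin minus paeoniflorin had medians of 0.057 over LPS-raised and -0.18 over LPS-lowered probes. Paeonol minus albiflorin had medians of -0.22 and 0.30 over these lists, and paeonol minus paeoniflorin -0.17 and 0.12. The shift over LPS-lowered probes was thus larger against albiflorin.

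**Figure D4:**
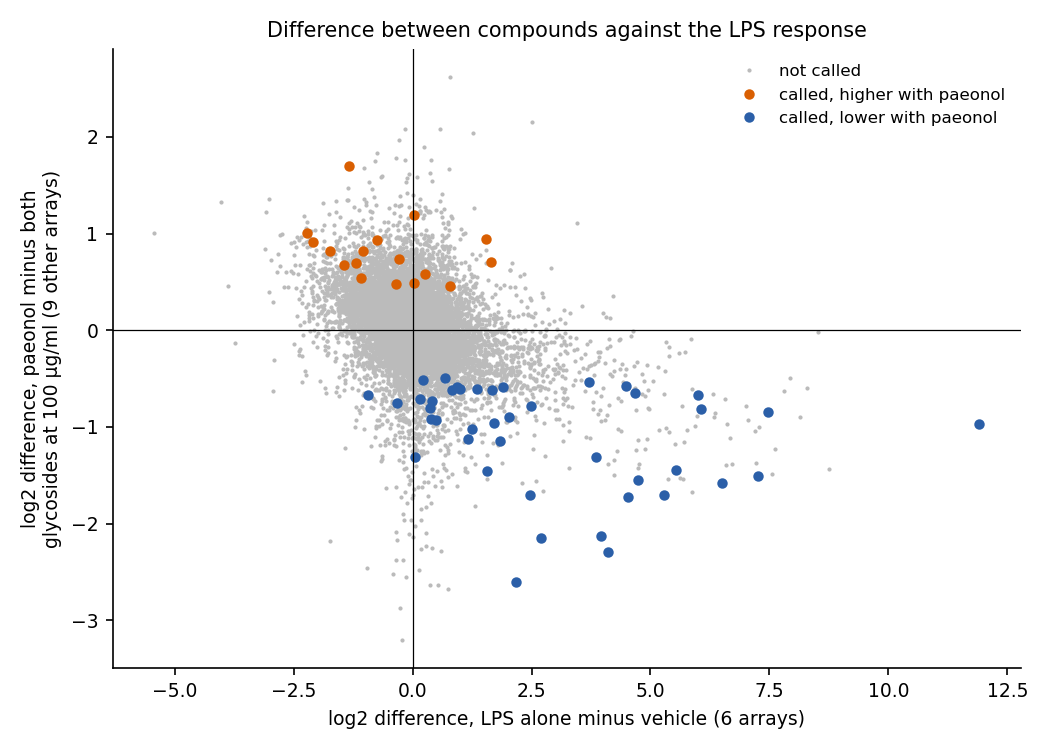
Each point is 1 of 16409 tested probes, with the log2 difference of LPS alone minus vehicle (6 arrays) on the x axis and of paeonol minus both glycosides at 100 µg/ml (9 other arrays) on the y axis. Blue points, the 42 probes called lower with paeonol, lie mostly to the right of 0, where 33 of them were raised by LPS, and orange points, the 17 called higher, lie mostly to the left.

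At lower doses the same test called no probe. At 10 µg/ml limma called 0 probes with 710 at an unadjusted p under 0.05, where 820 would be expected with no difference. At 1 µg/ml it called 0 with 2805 at an unadjusted p under 0.05, above both that number and the 1748 at 100 µg/ml, so the absence of calls there does not show that the compounds act alike. The lower doses use other arrays, and their 18 arrays include 2 that stand apart, paeoniflorin at 10 µg/ml replicate 1 and paeonol at 10 µg/ml replicate 3. Without those 2 arrays the count at 100 µg/ml was 103. Of the 9 paeonol arrays over all doses, 3 lay in the set of 15 and 6 in the set of 8.

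The median differences of the 59 probes were smaller at both lower doses, although single probes were not. At 1 µg/ml the differences ran from -1.49 to 0.56, with 5 probes at 2-fold or more, and at 10 µg/ml from -1.54 to 0.35, with 1 such probe. For the 17 higher probes the median log2 difference was 0.73 at 100 µg/ml, 0.066 at 10 µg/ml and 0.15 at 1 µg/ml, with the same sign at 11 and 14 of them. For the 42 lower probes it was -0.91, -0.018 and -0.21, with the same sign at 24 and 30. The LPS-raised probes as a whole had a median difference of 0.083 at the middle dose and of -0.19 at the lowest, against -0.18 at 100 µg/ml. For the LPS-lowered probes it was -0.031 and 0.15, against 0.21 at 100 µg/ml. The shift over LPS-responsive probes was therefore not confined to 100 µg/ml, and over the LPS-raised probes it was about as large at 1 µg/ml.

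The difference at 100 µg/ml was also tested directly against the mean of the differences at 1 and 10 µg/ml, over all 16409 probes. This called 9 probes (0.0548%), 4 higher (0.0244%) and 5 lower (0.0305%), all of them among the 59, whose arrays at 100 µg/ml the test shares. Shbg was 1 of them. Its difference was 0.022 at 10 µg/ml and 0.29 at 1 µg/ml, and the difference at 100 µg/ml lay below their mean by -1.47 ± 0.223 (limma adjusted p = 0.0179). Jun was at -0.028 and 0.21 at the lower doses, and its dose difference of -0.60 was not called (adjusted p = 0.110). Probe 604718 had differences of 0.16 and 0.56 and a dose difference of 1.34, and probe 610705 had 0.22 and 0.15 and a dose difference of 1.01, both with an adjusted p of 0.0179. These calls rested on single paeonol arrays and on the replicate term. Without paeonol replicate 1 the adjusted p was 0.105 for Shbg and both probes, without replicate 2 it was 0.129 for Shbg and 0.0964 for the probes, and with no replicate term 0 of the 9 calls were made. Probe 541442 was lower already at 10 µg/ml, by -1.54, and at 1 µg/ml, by -1.17, neither called, and its dose difference was not called (adjusted p = 0.495).

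**Figure D5:**
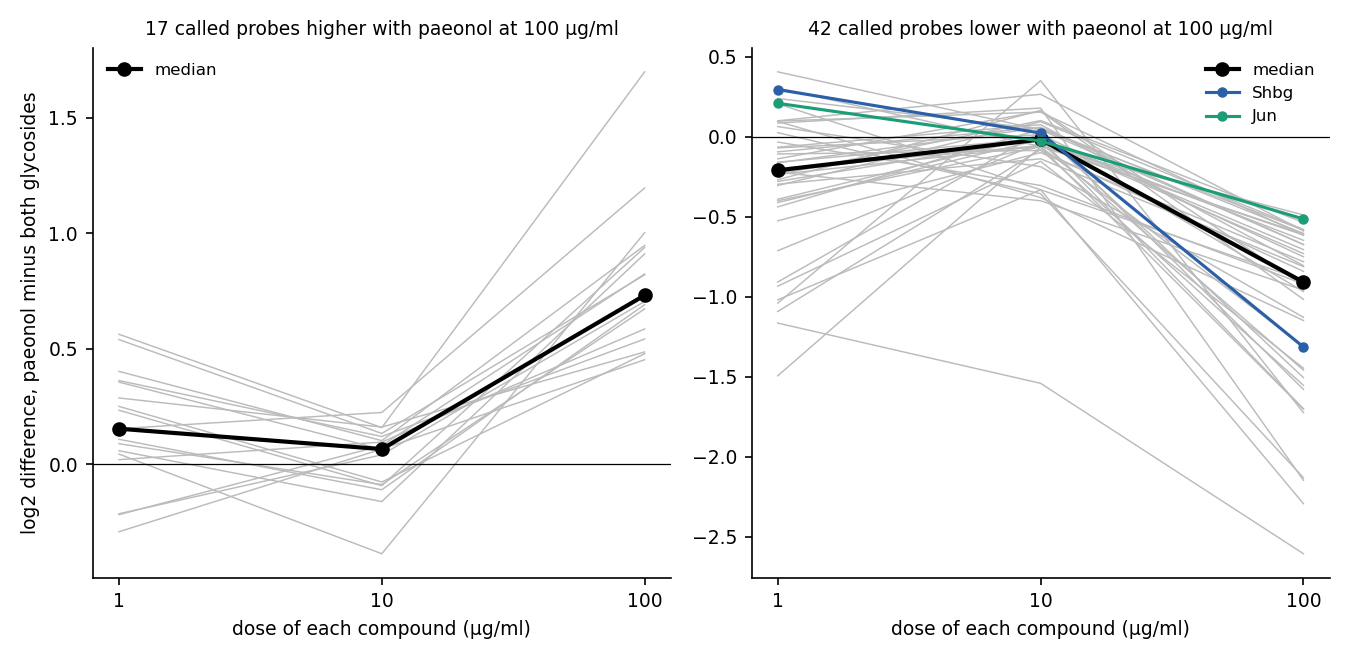
Lines join the log2 difference of paeonol minus both glycosides at 1, 10 and 100 µg/ml (x axis, equal steps) for the 17 probes called higher at 100 µg/ml (left) and the 42 called lower (right), with the median in black and Shbg and Jun in colour. Medians were near 0 at 10 µg/ml, 0.066 and -0.018, and the probes were chosen on the values at 100 µg/ml.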

How the data were processed

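Per the labels' protocols, digoxigenin-labelled cRNA made from total RNA was hybridised, 1 sample per array, and the arrays are chemiluminescent. The deposited scanner tables give a linear intensity per probe, not normalized between arrays, with a signal-to-noise score and a quality flag. The authors' deposited processed table, of log2 values (column medians 9.91 to 10.1, method and centring unknown), was an alternative only. Spots flagged above 5000 were set missing, control spots (303) left out, and signals quantile normalized over 33 arrays, floored at the 5th percentile (165.7) and taken to log2.

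Differences were fitted with lmFit and eBayes (limma 3.58.1 in R 4.3.3) to the 27 compound arrays, with 9 group means and replicate number. The model has 16 residual degrees of freedom. The LPS response was fitted to its 6 arrays alone. Tests were 2-sided, p-values were adjusted by Benjamini-Hochberg over all tested probes, and errors are SE. Per the file headers, arrays of one replicate number share a scan day (3 of 3 numbers). Same-numbered arrays had a median correlation of deviations from group means of 0.285, above 0.1 in 7 of 9 pairs. The number of arrays limits precision, with a median SE of 0.213. Where a gene is undetected on every array of a group, the fold is a bound. The scripts were tested on simulated data.

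The comparison, the gene lists and the naming rule were chosen with earlier results of these data known. The rule names the called genes by size (up to 15 each way), fills to 12 each way with the smallest p, and adds up to 4 members of each list and up to 2 unnamed probes each way. The unnamed probes are those of the largest difference among called probes detected on all arrays of the higher group. Symbols came from accessions through RefSeq's gene table (GRCm38.p6): 311 of 517 RefSeq and 5 of 337 GenBank BC accessions matched, and 0 of 27930 Celera identifiers. Alternatives covered the replicate term, the arrays fitted, normalization, floor, filter, flags, moderation, the array set and leaving out each array.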

Additional observations from a re-analysis of the deposited data

Results flagged for a closer look

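At 100 µg/ml, 2 of 39 probes screened had 1 glycoside array far from the other 5 (Dixon's criterion, gap over range), and both times it was albiflorin replicate 2, the array with the lowest signal. Foxn3 was at 11.95 there, with the nearest other array at 12.85, and Lst1 at 15.03, with the nearest at 14.55. Chance alone flags about 1 in 20 groups tested in this way, and 2 of 39 is near that rate. That rate holds for independent groups, while these probes share their arrays and were not picked at random. Why both flags fell on the same array was not tested.

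For 3 results the difference between paeonol and the glycosides was larger at 100 µg/ml than at the lower doses by a test of that difference itself. The log2 dose difference was -1.472 for Shbg, 1.338 for probe 604718 and 1.007 for probe 610705, each with a limma adjusted p of 0.0179.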

How the results depend on the processing

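The counts of called probes depended on the settings more than the named differences did. The pooled comparison with 59 calls, albiflorin with 25 and paeoniflorin with 21 became 9, 5 and 2 with no replicate block, and the count for the dose difference fell from 9 to 0. They became 0, 0 and 0 with only the 9 arrays in the fit, with or without renormalizing those arrays alone (2083, 2664 and 1267 at an unadjusted p under 0.05 without it). Median normalization gave 21, 22 and 8, and no detection filter 16, 6 and 9. Against albiflorin alone the count was 62 with all 33 arrays (38 higher, 24 lower), 44 with the authors' processed values, 55 with detection on all 9 arrays (27 higher, 28 lower) and 49 with a trended, robust prior. The array set, an alternative chosen after seeing the data, gave 138 and 60 with the replicate block and 37 and 12 without it. Leaving out the 2 arrays at 10 µg/ml that stand apart gave 103 and 43, and adjusting over the 3 pairs gave 13 and 13. Without each array in turn the pooled count ran from 9 to 88, albiflorin from 3 to 58 and paeoniflorin from 3 to 31. The planned term for an array batch in the file headers was not run, since the headers give the scan day only.

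Shbg stayed lower in all 23 alternatives, from -1.51 to -1.18, and lost its call in 4: no replicate block (-1.31, limma adjusted p = 0.0593), only the 9 arrays in the fit (-1.31, 0.284), those renormalized (-1.35, 0.289) and without paeonol replicate 2 (-1.18). Jun lost its call in 15 of 23, at -0.51 with no replicate block (0.110), all 33 arrays (0.0654), only the 9 arrays (0.300; renormalized -0.51, 0.301) and no filter (0.236), at -0.39 with median normalization (0.450; exact permutation p = 0.111) and at -0.53 with the array set and no replicate block (0.111). Without single arrays it ran from -0.59 to -0.43, 8 of which ended its call. Signs turned for uncalled genes only. Bcl2a1b became -0.047 with median normalization, -0.0031 with the 9 arrays renormalized, -0.038 with the authors' values, -0.0018 with flagged spots kept and -0.053 with the array set and no replicate block, and Stat5a became 0.046 with median normalization. Rraga became -0.018 with the authors' values and -0.078 with the array set, with and without the replicate block. Without single arrays Bcl2a1b ran from -0.091 to 0.085, Rraga from -0.034 to 0.064, Stat5a from -0.22 to 0.14, Tlr7 from -0.41 to 0.16, Tnfsf13 from -0.042 to 0.26 and the second Cebpb probe from -0.040 to 0.39. The causes were not tested.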
